A study of Homo sapiens with 6 samples.

Results

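The collagen genes of SKOV3 cells, an ovarian cancer line, were compared between cells with silenced KLF5 and control cells. Members were the protein-coding genes whose symbol is COL, a number, A and a number, and 38 of the 29185 genes in the expression table met this rule. KLF5 is a zinc finger transcription factor, and the study used the comparison to look for genes downstream of it. The control group, sh-NC, held 3 RNA-seq libraries of SKOV3 cells whose genotype the labels give as WT, and the sh-KLF5 group held 3 libraries of SKOV3 cells with KLF5 silenced. The silenced cells are a stable line made with a pLKO shRNA vector that carried EGFP and puromycin resistance, and no further treatment is given for either group. The vector of the control cells and the number of shRNA sequences behind the sequenced line are not given in the sources used here. The study speaks of independent repetitions in general but does not say whether the libraries of a group came from separate cultures, so the p-values measure only the spread between these libraries, which may be technical. The libraries held 15852319 to 17543896 reads on genes, and at this depth a count of 0 allows up to 3 reads, or 0.171 to 0.189 CPM, which scales reads to a common library total. KLF5 itself gave 4371, 4425 and 4494 normalized counts in sh-NC and 1745, 1440 and 1436 in sh-KLF5, so 34.8% of its mean level remained.

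Collagens are secreted or membrane-bound proteins built from chains that wind around each other into a stiff helix. Fibrillar collagens assemble into the cable-like fibrils of connective tissue, type IV collagen forms the network of basement membranes, and type VI collagen forms beaded filaments between them. Other classes lie on the surface of fibrils, anchor basement membranes to the tissue beneath, or span the cell membrane. Some collagens need several different chains in a fixed proportion, each from its own gene. In ovarian tumours most of the fibrillar collagen is laid down by stromal fibroblasts, while carcinoma cells make collagens of their own as well.

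Silencing of KLF5 was followed by changes in opposite directions within the family. COL5A2, COL1A2, COL26A1, COL3A1 and COL4A4 fell, and COL6A1 and COL6A2, which encode 2 of the chains of type VI collagen, rose. Of the 38 members, 21 had enough reads to be tested, and 5 were called lower and 2 higher, where a call needs an adjusted p under 0.05 and a log2 fold change beyond 1 in either direction. Among all 15803 genes tested, 3.37% were called lower and 1.90% higher. A further 4 members, COL27A1, COL7A1, COL16A1 and COL5A1, were higher at an adjusted p under 0.05 but below the fold threshold. At any fold, 6.04% of all genes were higher and 6.85% lower at that adjusted p. The remaining 10 tested members did not pass the test, and 17 members had too few reads, at most 11 in any library. Every sh-KLF5 library lay below every sh-NC library for 5 tested members and above for 6, against 15.9% and 15.4% of all genes tested. The median log2 fold change was 0.057 over the tested members and -0.0023 over all genes tested. COL1A2, COL26A1 and COL4A4 passed the read filter through their sh-NC libraries, and under a filter of 10 or more reads in each library 2 members were called lower instead of 5.

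**Figure D1:**
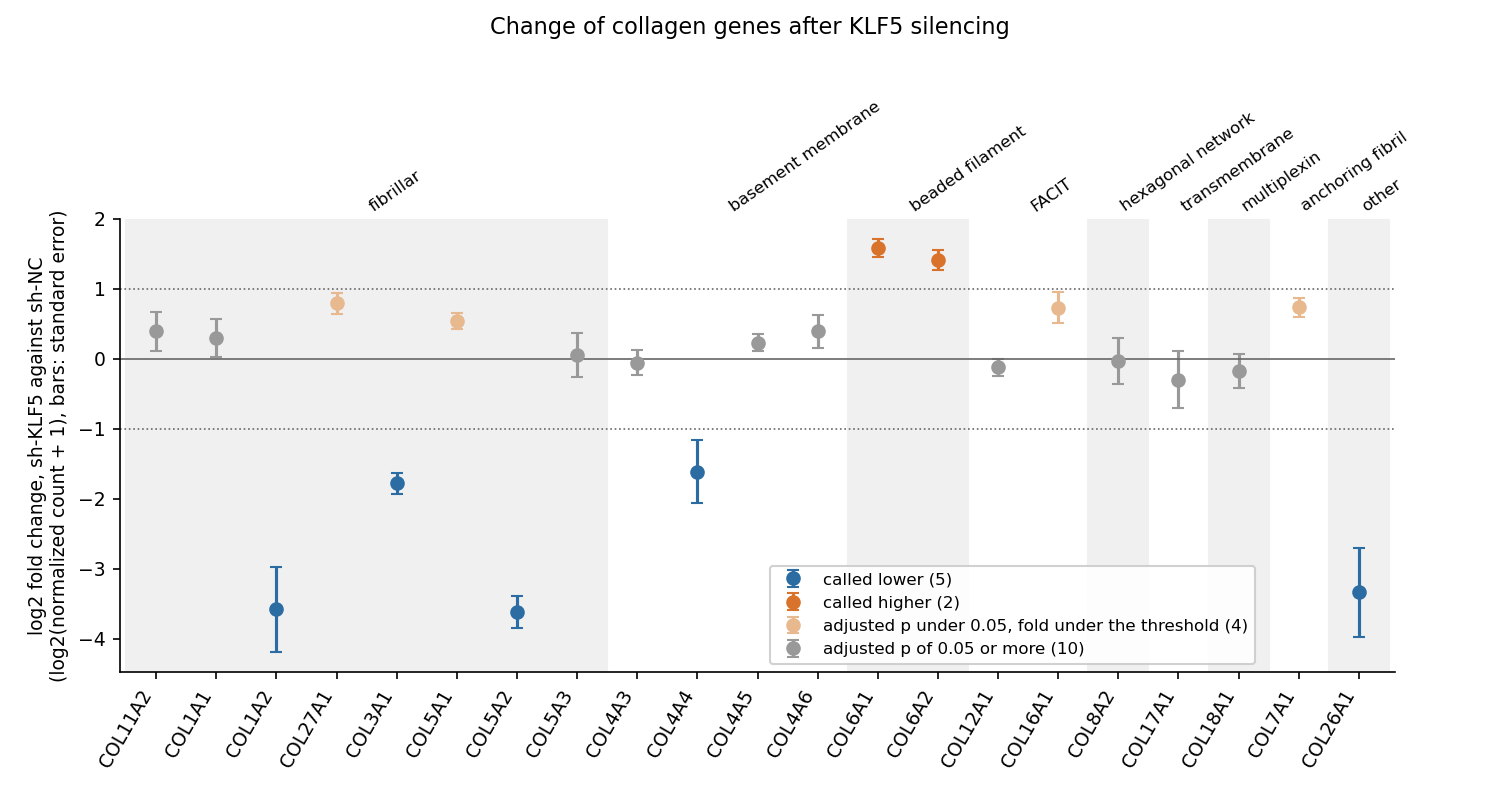
The vertical axis gives the log2 fold change of sh-KLF5 against sh-NC for each of the 21 tested collagen genes, grouped by class, with bars for the standard error and dotted lines at the fold threshold. COL5A2, COL1A2 and COL26A1 lie lowest, between -3.34 and -3.62, and COL6A1 and COL6A2 lie highest, at 1.58 and 1.42.

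The fibrillar class had 10 members, of which 8 were tested, with 3 lower, 0 higher, 2 higher below the fold threshold and 3 that did not pass. COL5A2, which encodes the second chain of type V collagen, gave 763, 619 and 559 normalized counts in sh-NC and 64.2, 33.0 and 63.2 in sh-KLF5. Every sh-KLF5 library lay far below the lowest sh-NC library. Its mean of 647 ± 105 (SD, n = 3) in sh-NC stood against 53.5 ± 17.7 in sh-KLF5, 8.26% of the control level, with a log2 fold change of -3.62 ± 0.23 (SE) and an adjusted p of 3.61e-08 (limma). COL3A1, the sole chain of type III collagen, which forms thin fibrils in soft organs, gave 562, 486 and 467 normalized counts in sh-NC and 160.0, 137 and 141 in sh-KLF5. The groups did not overlap here either, and the libraries of each group lay close together. Its log2 fold change was -1.78 ± 0.15 (limma adjusted p = 5.67e-07), which left 28.9% of the control mean.

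COL1A2 encodes the second chain of type I collagen, the main fibril of bone, skin and tendon, on chromosome 7 from 94394561 to 94431232 (GRCh38). Its reads were few, with 37, 25 and 20 in the sh-NC libraries and 0, 2 and 3 in the sh-KLF5 libraries. All sh-KLF5 libraries thus stood at or under the 3 reads that a count of 0 allows. The fitted log2 fold change of -3.58 ± 0.61 (limma adjusted p = 6.91e-04) depends on the value of 1 added before the logarithm, so the reads themselves were compared. The 82 reads of sh-NC against 5 of sh-KLF5 gave a 16.3-fold ratio, scaled by the factors per library behind the normalized counts. Its 95% exact interval of 6.70 to 51.5 covers counting error only. COL1A1, the gene of the first type I chain, gave 67.97, 64.0 and 55.2 normalized counts in sh-NC and 116, 73.7 and 52.1 in sh-KLF5. The COL1A1 groups overlapped, and the log2 fold change of 0.30 ± 0.27 did not pass the test (limma adjusted p = 0.539). Its value rested on sh-KLF5 library 1, without which it was -0.0033.

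COL5A1, the gene of the main type V chain, which helps start fibrils and sets their width, held rank 3 of the 38 members in sh-NC by level per kilobase. It gave 4026, 3361 and 3321 normalized counts in sh-NC and 4927, 5331 and 5264 in sh-KLF5, so every sh-KLF5 library lay above every sh-NC library. The log2 fold change was 0.54 ± 0.12 (limma adjusted p = 0.00465), and without sh-NC library 2 the adjusted p was 0.0521. COL27A1, a fibrillar collagen known from cartilage, gave 270.0, 262 and 220 normalized counts in sh-NC and 368, 515 and 427 in sh-KLF5. These groups did not overlap, and the log2 fold change was 0.79 ± 0.16 (limma adjusted p = 0.00232). COL11A2 and COL5A3 did not pass the test, with log2 fold changes of 0.39 ± 0.28 and 0.06 ± 0.32. Of COL5A3's exonic bases, 4% are shared with a gene on the opposite strand, and whether strand was used in counting is not given in the sources used here. COL24A1 and COL11A1 had at most 9 and 1 reads in any library.

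**Figure D2:**
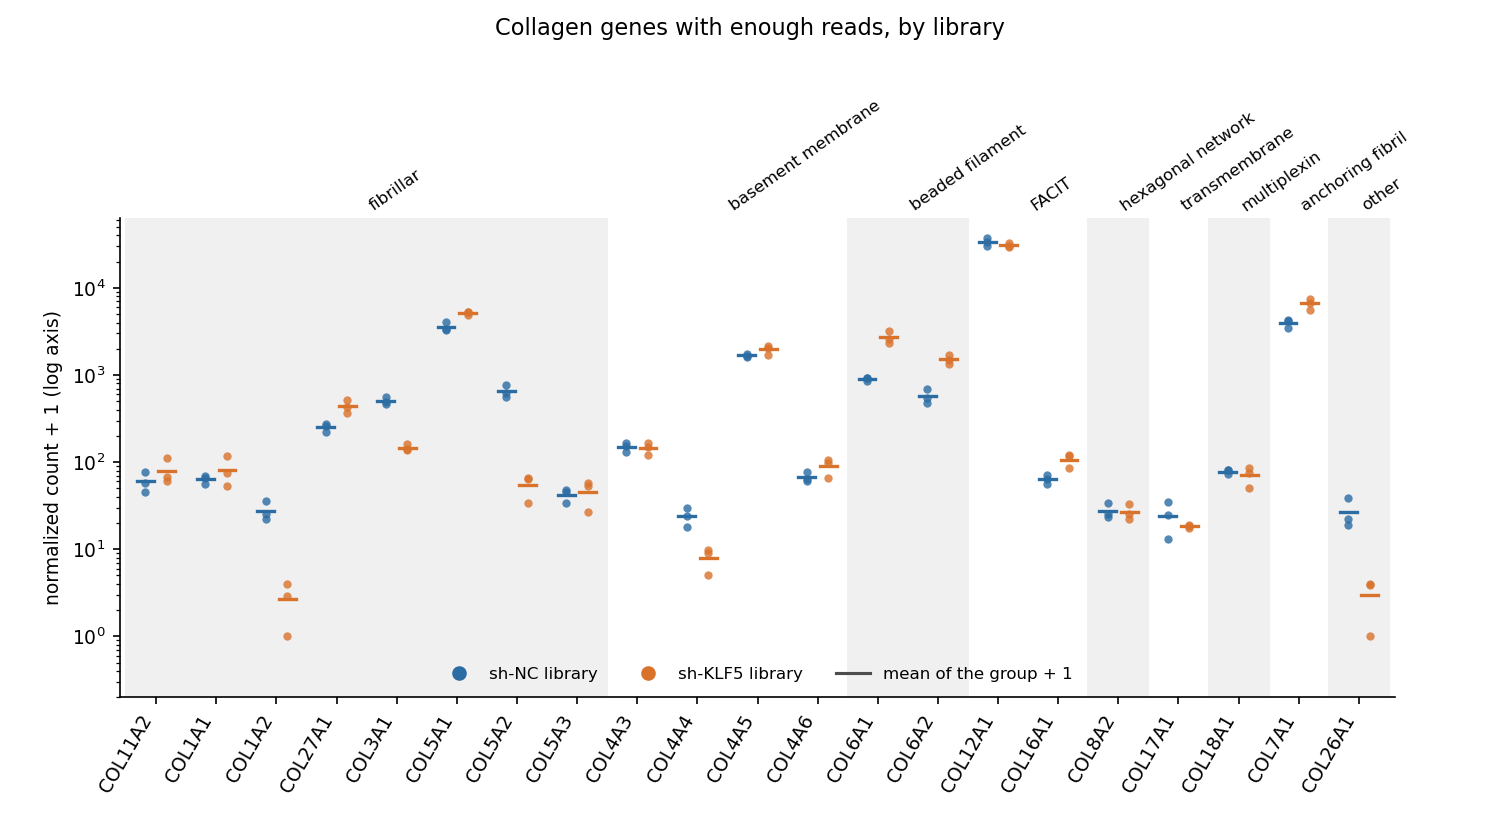
Each point is a library and each bar the group mean of the normalized count plus 1, on a log axis, for the 21 tested collagen genes by class. COL12A1 stands highest, at a mean of 33902 in sh-NC, and the sh-KLF5 points of COL5A2, COL3A1, COL1A2, COL4A4 and COL26A1 lie below all their sh-NC points.

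The basement membrane class had 5 members, of which 4 were tested and 1, COL4A4, was lower. COL4A3, COL4A4 and COL4A5 encode chains that together form the type IV network of the kidney filter and of some other basement membranes. COL4A4 had 25, 29 and 16 reads in sh-NC and 8, 9 and 4 in sh-KLF5, with no overlap between the groups. The log2 fold change was -1.62 ± 0.45 (limma adjusted p = 0.0258), and the call did not hold without sh-NC library 1 (adjusted p = 0.0986), sh-NC library 2 (0.148) or sh-KLF5 library 3 (0.0696). COL4A3 gave 163, 153 and 131 normalized counts in sh-NC and 148, 119 and 164 in sh-KLF5. Its groups overlapped, and the log2 fold change of -0.05 ± 0.18 did not pass the test (limma adjusted p = 0.892). COL4A5, by far the most abundant type IV chain here, gave 1663, 1765 and 1612 normalized counts in sh-NC and 2171, 2049 and 1709 in sh-KLF5. One sh-KLF5 library lay within the sh-NC range, and the log2 fold change of 0.23 ± 0.12 did not pass (limma adjusted p = 0.248). COL4A6, which can replace COL4A3 and COL4A4 beside COL4A5, had a log2 fold change of 0.39 ± 0.24 (limma adjusted p = 0.326), and COL4A2 had 5 reads in sh-KLF5 library 1 and none in the others.

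The type IV genes lie head to head in pairs, so that a short stretch of DNA between the starts serves both. The starts of COL4A3 and COL4A4 are 112 bases apart on chromosome 2, and those of COL4A5 and COL4A6 are 347 bases apart on chromosome X. Both stretches are shown because they lie between the genes of the pair with the larger difference in ratio and of the pair with the smaller difference. They come from RefSeq promoter windows on GRCh38.p14, plus strand, at chr2:227164454-227164564 (all 111 bases between the starts) and chrX:108439588-108439837 (250 of the 346 bases between them). KLF family factors bind GC-rich and CACCC elements as a rule, and capitals mark CCGCCC or CACCC on either strand, which read GGGCGG or GGGTG on the other.
COL4A3/COL4A4: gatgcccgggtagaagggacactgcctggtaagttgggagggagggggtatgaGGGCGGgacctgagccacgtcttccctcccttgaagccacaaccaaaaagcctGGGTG
COL4A5/COL4A6: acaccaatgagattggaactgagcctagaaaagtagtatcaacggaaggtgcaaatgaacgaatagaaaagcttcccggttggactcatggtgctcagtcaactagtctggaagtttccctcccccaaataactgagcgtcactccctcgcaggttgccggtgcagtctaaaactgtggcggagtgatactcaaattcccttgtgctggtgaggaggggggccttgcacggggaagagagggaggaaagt
The COL4A3 and COL4A4 stretch held 1 copy of each motif and the COL4A5 and COL4A6 stretch held 0 of either. Of all 35116 RefSeq promoter windows of 300 bases, 45.0% held CCGCCC and 59.9% held CACCC, and a match is a description of these letters, not a binding site. Windows were found for 29 of the 38 members, 40 windows in all, of which 23 held CCGCCC and 31 held CACCC.

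The beaded filament class had 4 members, of which the 2 with enough reads were both higher. COL6A1, the gene of the first type VI chain, gave 848, 924 and 931 normalized counts in sh-NC and 2601, 3228 and 2316 in sh-KLF5. The lowest sh-KLF5 library was well above the highest sh-NC library. The mean went from 901 ± 45.8 to 2715 ± 467 (SD, n = 3), 3.01-fold, with a log2 fold change of 1.58 ± 0.13 (SE, limma adjusted p = 5.18e-07). COL6A2, the gene of the second chain, gave 478, 544 and 681 normalized counts in sh-NC and 1345, 1687 and 1490 in sh-KLF5. These groups did not overlap, and the mean was 2.66-fold higher with a log2 fold change of 1.42 ± 0.14 (limma adjusted p = 4.19e-06). COL6A3, the gene of the chain that usually joins them, had 1, 2 and 0 reads in sh-NC and 0 in every sh-KLF5 library, so no level could be set for it at this depth. COL6A6, a chain that can take its place, had 6, 5 and 6 reads in sh-NC and 1, 1 and 0 in sh-KLF5. This was an 8.44-fold ratio with a 95% exact interval of 2.003 to 75.3 that covers counting error only, and the gene was not tested. COL6A1 and COL6A2 follow each other on chromosome 21 on the same strand, with 93046 bases between them. The bases before the start of COL6A2 (RefSeq, GRCh38.p14, plus strand, chr21:46097862-46098096) are shown because it is the higher gene of the family with a window, with capitals for the same motifs.
COL6A2: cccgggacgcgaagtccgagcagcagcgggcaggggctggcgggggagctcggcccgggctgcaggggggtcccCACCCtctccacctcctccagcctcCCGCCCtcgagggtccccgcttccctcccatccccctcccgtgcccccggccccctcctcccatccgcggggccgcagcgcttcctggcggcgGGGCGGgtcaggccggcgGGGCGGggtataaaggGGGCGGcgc
This stretch of 235 bases held 4 copies of CCGCCC and 1 of CACCC. In the full promoter windows COL6A2 also held 4 copies of CCGCCC. Among members that did not pass the test, a window of COL18A1 held 9 copies and that of COL8A2 held 8. The other windows of such members held 0 to 3. A link between motif copies and the changes was not tested.

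The FACIT class, collagens that sit on the surface of fibrils, had 7 members, of which COL12A1 and COL16A1 were tested. COL12A1 gave 37129, 34003 and 30573 normalized counts in sh-NC and 30096, 29893 and 33083 in sh-KLF5. It was the most abundant member in both groups, by count and per kilobase. Its groups overlapped, and the log2 fold change of -0.12 ± 0.12 did not pass the test (limma adjusted p = 0.546). COL16A1 gave 63.3, 55.2 and 71.1 normalized counts in sh-NC and 118, 115 and 84.2 in sh-KLF5. The groups did not overlap, and the log2 fold change was 0.73 ± 0.22 (limma adjusted p = 0.0394), but the adjusted p was 0.0628 to 0.172 in 5 of the 6 fits without 1 library, all but that without sh-KLF5 library 3. The untested FACIT members COL9A2, COL9A3, COL14A1, COL20A1 and COL21A1 had at most 10 reads in any library.

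COL7A1 forms the anchoring fibrils that tie the basement membrane of skin and other epithelia to the tissue beneath. It gave 4207, 4241 and 3469 normalized counts in sh-NC and 6760, 7558 and 5582 in sh-KLF5. The groups did not overlap, and the log2 fold change was 0.73 ± 0.13 (limma adjusted p = 0.00116). The hexagonal network gene COL8A2, the hemidesmosome collagen gene COL17A1 and COL18A1, the precursor of endostatin, did not pass the test. Their log2 fold changes were -0.03 ± 0.33, -0.30 ± 0.40 and -0.18 ± 0.24. COL18A1 shares 16.4% of its exonic bases with SLC19A1 on the opposite strand.

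COL26A1, a short collagen described from testis and ovary, had 41, 18 and 20 reads in sh-NC and 0, 3 and 3 in sh-KLF5. As with COL1A2, every sh-KLF5 library was at or under 3 reads while every sh-NC library held more. The fitted log2 fold change was -3.34 ± 0.63 (limma adjusted p = 0.00174), and the 79 reads against 6 gave a 13.1-fold ratio with a 95% exact interval of 5.74 to 36.7. It lies on chromosome 7 from 101362820 to 101559024, plus strand, and the bases before its start (RefSeq, GRCh38.p14, chr7:101362625-101362819) are shown as those of a called lower gene.
COL26A1: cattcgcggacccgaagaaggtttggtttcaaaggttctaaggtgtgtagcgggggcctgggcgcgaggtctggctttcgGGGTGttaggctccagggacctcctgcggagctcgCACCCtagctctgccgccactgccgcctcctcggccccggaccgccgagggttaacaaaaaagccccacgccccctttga
This stretch of 195 bases held 2 copies of CACCC and 0 of CCGCCC.

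The 17 members with few reads lay in 8 of the 9 classes. COL23A1, a membrane-spanning collagen, had 10, 5 and 8 reads in sh-NC and 1, 2 and 0 in sh-KLF5, a 7.61-fold ratio with a 95% exact interval of 2.30 to 39.6. COL9A3, a cartilage chain, had 7, 8 and 10 reads in sh-NC and 3, 3 and 6 in sh-KLF5, and its 2.07-fold ratio had an interval of 1.001 to 4.52. These intervals cover counting error only and were not adjusted for the 17 members, and libraries of a group differed by more than counting error. They are therefore no test of a change. In the other direction, COL15A1, a basement membrane multiplexin, had 0, 1 and 0 reads in sh-NC and 5, 4 and 3 in sh-KLF5. COL24A1 had 1, 3 and 0 reads against 5, 3 and 9, and COL10A1, the collagen of growth plate cartilage, had 6, 8 and 1 against 3, 11 and 4. COL21A1 and COL8A1 had at most 6 reads, COL14A1 and COL4A2 at most 5, and COL13A1, COL20A1, COL28A1, COL9A2, COL6A3, COL11A1 and COL25A1 at most 3. COL2A1, COL4A1, COL6A5, COL9A1, COL19A1 and COL22A1 had no protein-coding row in the expression table, so they could not be analysed here.

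Levels of different genes were compared as normalized counts per kilobase of exon. Summed over the 38 members the level was 4078 ± 332 (SD, n = 3) in sh-NC and 4648 ± 142 in sh-KLF5. COL12A1 made up 66.6% ± 1.04 of this sum in sh-NC and 53.5% ± 3.78 in sh-KLF5, and the groups did not overlap. The beaded filament class went from 275 ± 26.6 to 788 ± 113 per kilobase, or from 6.80% ± 1.21 of the sum to 16.9% ± 1.94. COL7A1 went from 8.79% ± 0.51 to 12.9% ± 1.73. The fibrillar class as a whole was at 522 ± 61.7 and 550 ± 21.0 per kilobase, with overlapping groups. Within it COL5A1 went from 319 to 462 per kilobase, COL5A2 from 86.8 to 7.17 and COL3A1 from 74.1 to 21.4. By the order of levels per kilobase, COL5A2 went from rank 7 in sh-NC to rank 15 in sh-KLF5, COL3A1 held rank 8 in both, and COL6A1 went from rank 4 to rank 3. COL5A1 at 319 ± 35.4 and COL7A1 at 359 ± 39.4 per kilobase were neighbours in sh-NC whose difference was within their spread. No test was made of these sums and shares.

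**Figure D3:**
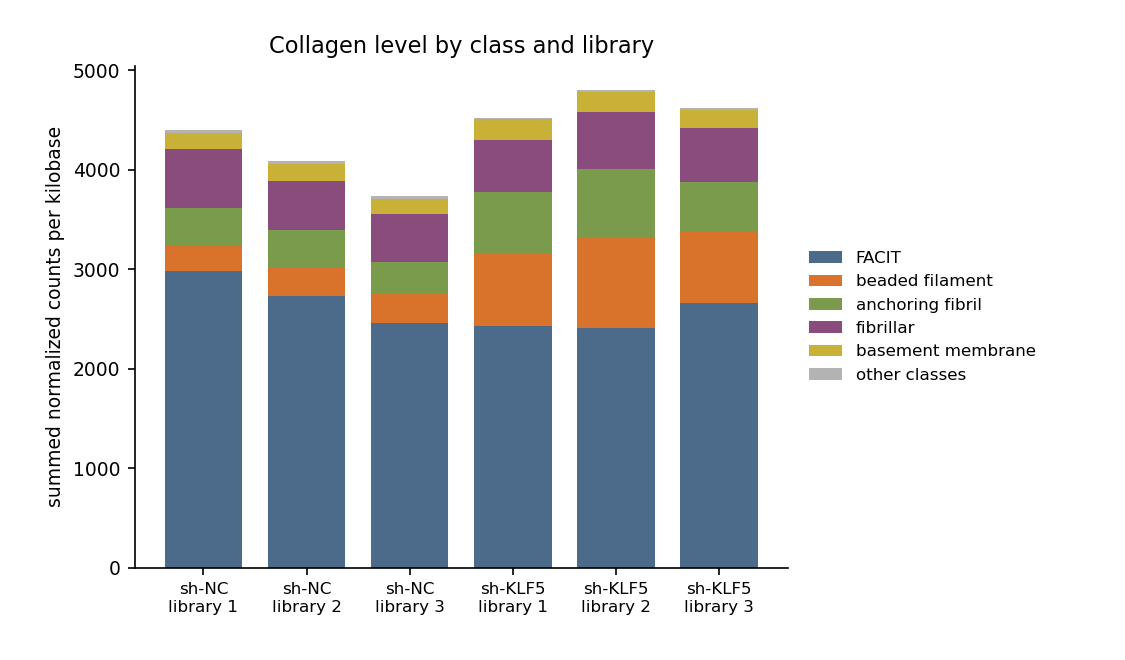
Each bar is a library, and its height is the sum of normalized counts per kilobase over the collagen genes, split by class. The beaded filament part is larger in all 3 sh-KLF5 libraries, at 710 to 918 against 248 to 301 in sh-NC, while the FACIT part, nearly all COL12A1, is the largest in every library.

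Chains that assemble together, or genes that lie side by side, were compared as log2 ratios within each library. These 6 pairs were chosen with the values known, and with 3 libraries against 3 the exact permutation test cannot go below p = 0.1. From the log2 means, COL5A1 exceeded COL5A2 5.53-fold in the control cells and 99.1-fold after silencing, or 2.47 ± 0.09 against 6.63 ± 0.58 (SD, n = 3) on the log2 scale of the libraries. This difference of 4.16 had the smallest p the exact permutation test allows, 0.1 (two-sided). COL1A1 to COL1A2 differed by 3.88 on the log2 scale, a size set largely by the value added before the logarithm, since COL1A2 was at or under 3 reads in sh-KLF5. It was 2.54 with 5 added and 5.23 with 0.1 added, and 2.98 to 4.56 without 1 library. With p = 0.1 in the exact permutation test for each of these ratios, COL3A1 to COL5A2 differed by 1.84 and COL4A3 to COL4A4 by 1.56. The difference for COL4A3 to COL4A4 was 1.17 to 1.70 in the alternative fits with all libraries and 1.16 to 1.87 without 1 library. COL5A2, COL1A2 and COL4A4 were already called lower, so the ratios that hold them restate those calls and are no separate test. COL3A1 and COL5A2 lie tail to tail on chromosome 2 with 19149 bases between them. COL6A1 to COL6A2 stood at 0.68 ± 0.20 in sh-NC and 0.84 ± 0.18 in sh-KLF5, and the difference of 0.16 had p = 0.5 (exact permutation test). COL4A5 to COL4A6 stood at 4.65 ± 0.13 and 4.49 ± 0.50, and the difference of -0.16 had p = 0.7 (exact permutation test). A p above the threshold does not show that the last 2 ratios were equal.

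**Figure D4:**
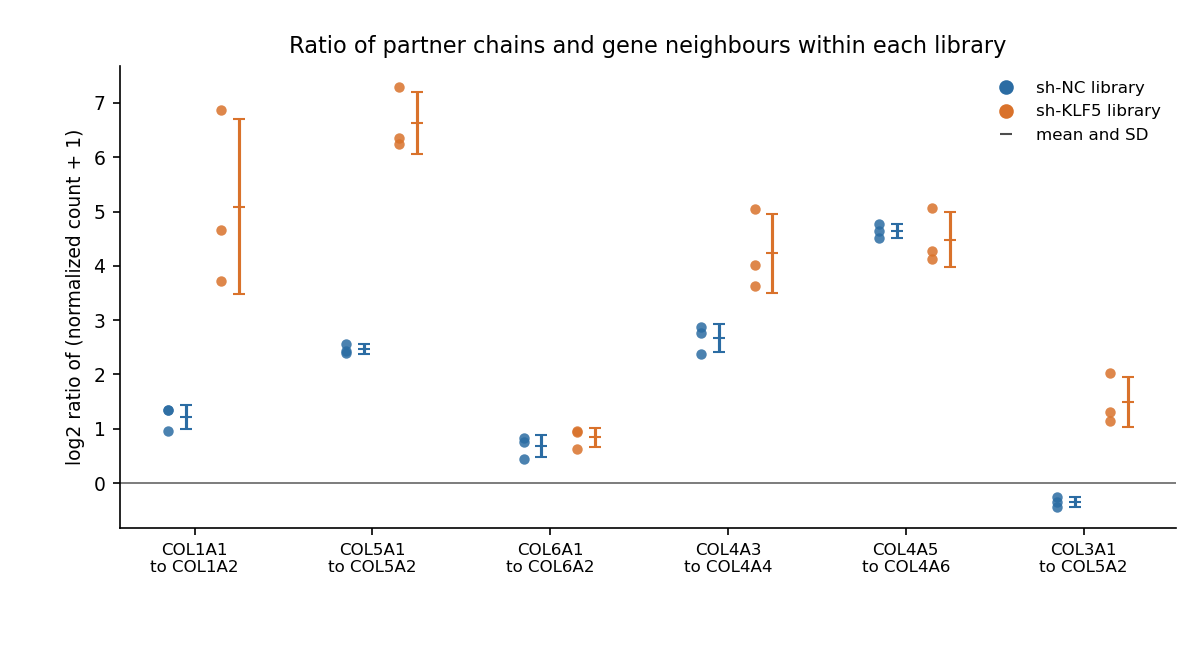
Points are the log2 ratio of (normalized count + 1) of the named genes in each library, with the mean and SD of each group beside them. The groups lie apart for COL1A1 to COL1A2, COL5A1 to COL5A2, COL4A3 to COL4A4 and COL3A1 to COL5A2, and overlap for COL6A1 to COL6A2 and COL4A5 to COL4A6.

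Collagen chains are modified and folded in the endoplasmic reticulum, trimmed outside the cell, crosslinked, and bound by receptors and other matrix proteins. Of 62 genes listed for these steps, 57 had a row and 48 were tested, with 8 lower, 1 higher and 9 higher below the fold threshold. Among all genes tested 3.37% were called lower and 1.90% higher, and 6.04% were higher at an adjusted p under 0.05 and any fold. The partner genes' median log2 fold change was 0.19. COLGALT2, ADAMTS3 and SPARC passed the read filter through their sh-NC libraries. Under a filter of 10 or more reads in each library 5 partner genes were called lower instead of 8. Among modifying enzymes, COLGALT2, which adds galactose to hydroxylysine, had 68, 73 and 56 reads in sh-NC and 7, 9 and 4 in sh-KLF5. Its log2 fold change was -3.16 ± 0.37 (limma adjusted p = 1.92e-05), and -3.34 to -2.61 in the alternative fits with all libraries. PLOD2, a lysyl hydroxylase, was higher by 0.64 ± 0.14 (limma adjusted p = 0.00583), below the fold threshold. P3H2, a prolyl hydroxylase with type IV collagen among its substrates, rose by 1.21 ± 0.13 (limma adjusted p = 7.39e-06). P3H3 of the same family fell by 1.10 on the log2 scale (SE 0.30, limma adjusted p = 0.0253), a call lost without sh-NC library 2 (adjusted p = 0.0955), sh-NC library 3 (0.123) or sh-KLF5 library 3 (0.0822). The other modifying enzymes with 1000 or more normalized counts in a group, P4HA2, P4HB, P3H1, CRTAP, PPIB, PLOD1, PLOD3 and COLGALT1, did not pass the test, at -0.24 to 0.33.

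FKBP10, a collagen chaperone of the endoplasmic reticulum, gave 253, 208 and 219 normalized counts in sh-NC and 19.4, 19.4 and 26.1 in sh-KLF5, a log2 fold change of -3.34 ± 0.23 (limma adjusted p = 7.45e-08). SERPINH1, the collagen chaperone HSP47, was higher by 0.38 ± 0.12 (limma adjusted p = 0.0443), below the fold threshold, with an adjusted p of 0.0746 to 0.259 without sh-NC library 1 or 2 or sh-KLF5 library 2 or 3. SEC24D, a coat protein of the vesicles that carry procollagen, was higher by 0.61 ± 0.12 (limma adjusted p = 0.00273), also below that threshold, and MIA3 and SEC23A did not pass, at 0.05 ± 0.12 and 0.02 ± 0.13.

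Of the enzymes that trim procollagen, ADAMTS3, which removes the amino-terminal propeptide, had 74, 75 and 59 reads in sh-NC and 1, 0 and 0 in sh-KLF5, a 206-fold ratio with a 95% exact interval of 36.7 to 8194. PCOLCE, which speeds removal of the carboxy-terminal propeptide, gave 235, 171 and 191 normalized counts in sh-NC and 33.6, 54.3 and 26.1 in sh-KLF5, and fell by 2.41 on the log2 scale (limma adjusted p = 8.43e-06). Every sh-KLF5 library of both genes lay below every sh-NC library. PCOLCE2, the paralog of PCOLCE, was higher by 0.77 ± 0.15 (limma adjusted p = 0.00288), below the fold threshold, while BMP1, the enzyme that PCOLCE enhances, did not pass, at 0.31 ± 0.14. DDR2, a receptor tyrosine kinase for fibrillar collagen, fell by 3.90 on the log2 scale (limma adjusted p = 9.40e-10), and the integrin subunit ITGA2, another collagen receptor, was higher by 0.99 ± 0.12 (limma adjusted p = 3.59e-05), just under the fold threshold. Without sh-NC library 1, sh-NC library 2 or sh-KLF5 library 3, ITGA2 passed that threshold. ITGB1, the partner subunit of ITGA2, did not pass, at 0.10 ± 0.12. Among fibril-associated proteins, SPARC, which binds collagen, had 201, 100 and 135 reads in sh-NC and 3, 3 and 0 in sh-KLF5, a 72.1-fold ratio with a 95% exact interval of 32.9 to 198. The proteoglycan gene DCN fell by 1.82 on the log2 scale (limma adjusted p = 9.69e-05), and FN1, fibronectin, was higher by 0.63 ± 0.12 (limma adjusted p = 0.00162). None of the 4 tested crosslinking enzymes was called, and LOX and LOXL2 had log2 fold changes of 0.26 ± 0.14 and 0.20 ± 0.12. Of the collagen-cleaving enzymes 4 were tested and 0 were called. MMP2 was higher by 0.81 ± 0.23 (limma adjusted p = 0.0265), below the fold threshold. Its adjusted p was 0.0532 to 0.134 in 5 of the 6 fits without 1 library, and without sh-KLF5 library 3 it passed the fold threshold at 1.09. MMP1 was at -0.74 ± 0.23 (limma adjusted p = 0.0505) and MMP14 at 0.19 ± 0.12, and neither passed.

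**Figure D5:**
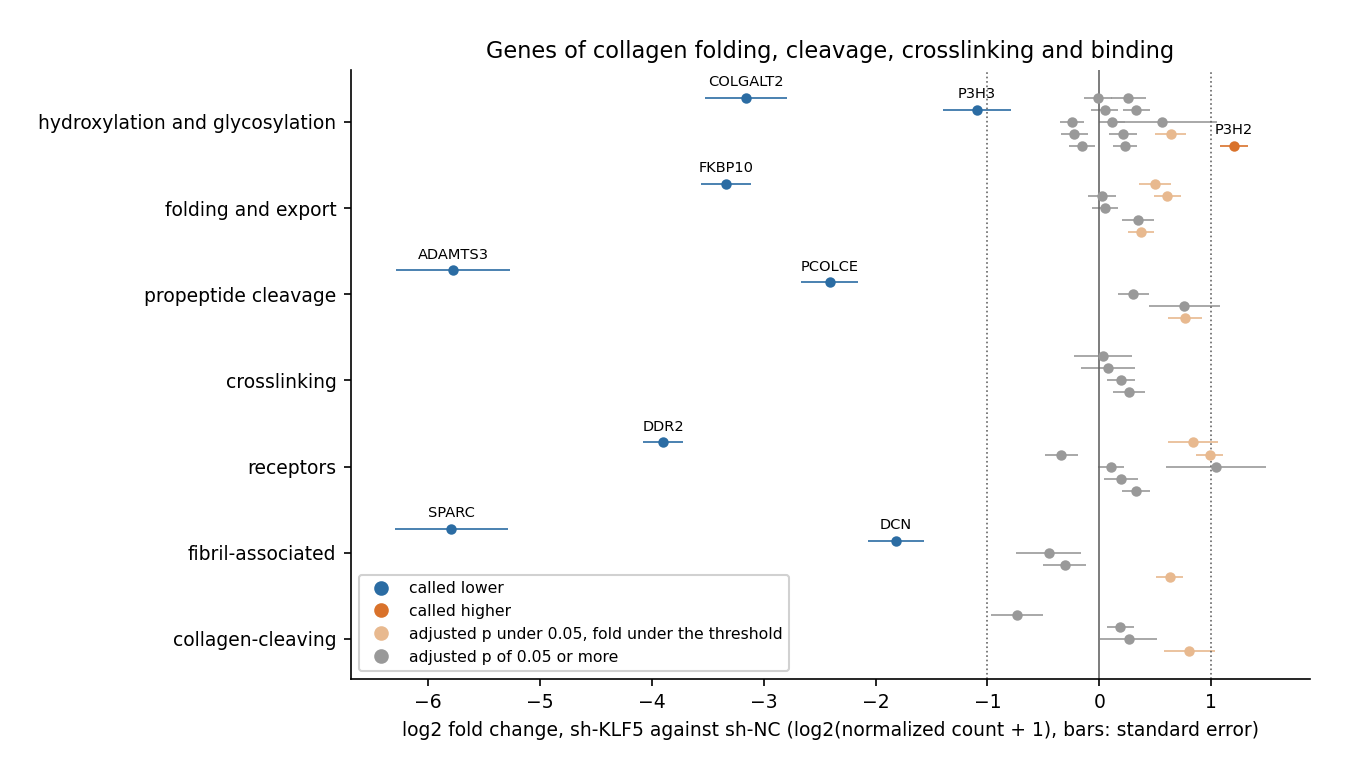
Each point is a tested gene of collagen folding, cleavage, crosslinking or binding, placed by its log2 fold change with a bar for the standard error, in rows by role. The 8 genes called lower lie between -1.10 and -5.79, and P3H2 alone is called higher, at 1.21.

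In cell populations measured in bulk, fewer cells of a type and less RNA per cell cannot be told apart. Fibroblasts are a known source of COL1A2, COL3A1 and COL5A2, and markers of fibroblasts moved in both directions between the groups. All 7 listed fibroblast markers had a row, and of the 6 tested 3 were lower, 2 higher and 1, LUM, did not pass. Among all genes tested 3.37% were called lower and 1.90% higher. The lower markers were PDGFRA, THY1 and DCN. PDGFRA had 99, 70 and 56 reads in sh-NC and 0, 0 and 2 in sh-KLF5, and THY1 had 108, 53 and 56 against 0, 1 and 1. PDGFRA and THY1 passed the read filter through their sh-NC libraries. FAP was higher by 1.90 ± 0.29 (limma adjusted p = 2.90e-04), and PDGFRL by 1.06 ± 0.26 (limma adjusted p = 0.0130), the latter lost without sh-NC library 2 (adjusted p = 0.0712) or sh-KLF5 library 2 (0.0766). The summed level of the list was 712 to 1137 normalized counts in sh-NC and 389 to 840 in sh-KLF5, and no marker of it was at 0 in every library. Of 11 epithelial markers that fit the labelled carcinoma cell, 10 had a row and were tested, and their sum was 54162 to 66196 in sh-NC and 28648 to 39102 in sh-KLF5. KRT7 and KRT8 made up most of that sum. At an adjusted p under 0.05 and any fold, 6.85% of all genes tested were lower. KRT8 and MUC16 were called lower and KRT7, KRT18 and MSLN were lower below the fold threshold. The other 5 did not pass, with EPCAM at -0.03, CDH1 at -0.15, PAX8 at -0.25 and ERBB2 at -0.33. KRT19, with at most 17 reads in any library, was at 1.14 in the other direction. The call of KRT8 was lost without sh-KLF5 library 1 (log2 fold change -0.99) and that of MUC16 without sh-NC library 1 (limma adjusted p = 0.05001). The leukocyte markers PTPRC, CD68 and LYZ and the endothelial marker CDH5 had at most 3 reads in any library. The sums of those lists were 149 to 223 and 73.6 to 88.1 in sh-NC and 191 to 379 and 46.1 to 84.4 in sh-KLF5. CD14 made up nearly all of the leukocyte sum, with 238, 151 and 180 reads in sh-NC and 340, 391 and 189 in sh-KLF5. PECAM1 made up most of the endothelial sum, with 64, 72 and 75 reads against 45, 66 and 31. CD14, at 0.66 ± 0.23 (limma adjusted p = 0.0725), and PECAM1, at -0.61 ± 0.28 (limma adjusted p = 0.172), did not pass. VWF had at most 10 reads. Of the 2 tested endothelial markers TEK was called higher, with at most 17 reads in any library, and passed the read filter through its sh-KLF5 libraries. The call of TEK was lost in 5 of the 6 fits without 1 library, all but that without sh-NC library 1. The part of these markers in the collagen results was not tested.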

How the data were processed

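RNA-seq of poly(A) RNA from 3 sh-NC and 3 sh-KLF5 libraries was analysed, with groups and replicate numbers from the sample titles. The authors deposited 1 table with normalized signal per gene and library, whose values are read counts divided by 1 factor per library, and the submitters' processing notes name hg38, HISAT2 2.0.5, featureCounts 1.5.0-p3 and DESeq2 1.20.0. The authors' group means, log2 fold changes and p-values in the deposited table come from their own comparison and were not used. With the lowest nonzero value of a library taken as 1 read, 100% of values were whole (tolerance 1e-06). Genes passing edgeR's filterByExpr (minimum count 10; 15803 genes) were fitted with limma 3.58.1 (trend and robust) on log2(normalized count + 1), with Benjamini-Hochberg adjustment over all 15803, so a fold change of a low gene is understated. Ratios of reads carry exact binomial intervals of the pooled reads of each group, which cover counting error only. The method was tested on simulated data, where limma recovered 99.5% of 186 changed genes of 15496 with 3 false calls. This percentage is taken over all changed genes together, and recovery near the fold threshold or at few reads was not tested. edgeR 4.0.16 and DESeq2 1.42.0 on the recovered reads, other scalings, filters and pseudocounts, and left-out libraries were alternatives. The numbers were not taken as pairs, since same-numbered libraries correlated at 0.059, 0.033 and 0.050 in their deviations. Libraries of a group differed by more than counting noise (chi-square per degree of freedom 4.66 to 34.3). All 38 members matched GENCODE 29 on GRCh38 in coordinates and exonic length. The members and gene lists were chosen with earlier results of these data known. Named are all members, partner genes that were called or had 1000 or more normalized counts in a group, KLF5 and the marker genes, and PCOLCE2, MMP1 and MMP2 were added after their values were seen.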

Additional observations from a re-analysis of the deposited data

How the results depend on the processing

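COL5A2, COL3A1, COL1A2, COL26A1, COL6A1 and COL6A2 kept their direction and call in every alternative that could test them, edgeR and DESeq2 on the recovered reads included. With at least 10 reads in every library, 2 collagen genes were lower instead of 5 and 5 partner genes instead of 8. COL1A2, COL26A1, COL4A4, COLGALT2, ADAMTS3 and SPARC were then not tested, among other genes. With no fold threshold 6 collagen genes were higher instead of 2 and 10 partner genes instead of 1. With no filter, and with unadjusted p, 2 partner genes were higher. Leaving out 1 library at a time gave 4 to 5 collagen genes lower, 7 to 8 partner genes lower and 1 to 3 partner genes higher. SERPINH1 lost its adjusted p under 0.05 in some of these fits, and of the 9 partner genes higher below the fold threshold 5 kept it in all. Without division by length, COL12A1 made up 72.6% of the collagen sum in sh-NC instead of 66.6%. The fit with the replicate number as a block gave 5 collagen genes lower and 2 higher and 8 partner genes lower and 1 higher, and over all genes 567 lower and 327 higher instead of 533 and 301.

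The log2 fold changes of some genes that did not pass the test changed sign when 1 library was left out, and COL12A1, COL11A2, COL4A5 and COL4A6 are among those that did not. They ranged from -0.68 to 0.02 for COL17A1 (0.023 without sh-NC library 3), from -0.34 to 0.041 for COL18A1, from -0.0033 to 0.57 for COL1A1 and from -0.16 to 0.074 for COL4A3 (0.014 without sh-NC library 1). They ranged from -0.14 to 0.40 for COL5A3 (-0.10 and -0.086 in the other sign changes), from -0.19 to 0.12 for COL8A2 (0.087 and 0.0058) and from -0.020 to 0.13 for P3H1 (-0.0031). PLOD1 ranged from -0.082 to 0.13 (0.023), MIA3 from -0.041 to 0.10, SEC23A from -0.10 to 0.15, and the difference in the log2 ratio of COL4A5 to COL4A6 from -0.45 to 0.020. Over all named genes, settings other than left-out libraries reversed 0 results, and the calls lost there were those of TEK in 4 settings and PDGFRL with a pseudocount of 5. Depth limits the 17 untested members, for which only large ratios could be seen.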

Other observations

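Some proteins that are not collagens carry a collagen-like helix. Of 19 such genes, listed after the values were seen, 16 had a row and 7 were tested. Among all genes tested 3.37% were called lower and 1.90% higher. At an adjusted p under 0.05 and any fold, 6.85% were lower and 6.04% higher. COLEC11, a soluble lectin of complement activation, was at 25.96 normalized counts in the control cells and 8.94 after silencing, a log2 fold change of -1.46 ± 0.41 (limma adjusted p = 0.0263), and the call was lost without any one of the 3 sh-NC libraries or without sh-KLF5 library 3 (adjusted p of 0.0589 to 0.123). It had 23, 25 and 30 reads in sh-NC and 9, 12 and 6 in sh-KLF5, and passed the read filter through its sh-NC libraries. C1QTNF1, a secreted C1q-like protein, was at 117 against 197 normalized counts, and SCARA3, a scavenger receptor family member, at 234 against 154. Both had a limma adjusted p under 0.05 (0.0174 and 0.0473) but stayed below the fold threshold, and both lost it when 1 of several libraries was left out (adjusted p up to 0.0988 and 0.190). SCARA3 also lost it when libraries were scaled by size only (0.0581) and with at least 10 reads in each library (0.0511). The other 4 tested genes, C1QTNF3, C1QTNF6, EDA and EMILIN1, did not pass.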
